A study of Mus musculus with 4 samples.

Results

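The cells described here are the Vwf-positive endothelial barcodes of the mouse lung, taken from a study that profiled lung and synovium by droplet-based 3′ RNA sequencing. A barcode stands for 1 droplet, in most cases 1 cell, and a UMI for 1 captured RNA molecule. From both lung libraries, barcodes were taken with at least 500 UMIs and at most 20% mitochondrial UMIs that held at least 2 UMIs over the endothelial genes Cdh5, Pecam1, Cldn5 and Ptprb. They also had to hold at least 2 Vwf UMIs, fewer than 3 UMIs of the capillary genes Car4 and Ednrb together, and none of the leukocyte gene Ptprc or the platelet genes Itga2b and Ppbp. This rule took 501 of the 19798 lung barcodes deposited, out of 30943 in the 4 libraries of the series. TNF- lung held 498 of them and TNF+ lung 3. Because Vwf and the other 9 genes of the rule chose the barcodes, their values are given as description only.

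TNF+ mice were of the TNF-Tg line, which carries a copy of the human TNF gene on a C57BL/6 background and serves as a model of erosive arthritis with pulmonary hypertension. TNF- mice were their wild-type littermates, and all mice were female and 4 months old. Lungs of 3 to 5 mice per genotype were pooled, digested with collagenase, elastase and dispase, freed of red cells and sorted for viability only. Each genotype was therefore 1 library without replicates, so no difference below has a test, and intervals (95%) cover counting error only. Whether endothelial cells were fewer in the tissue or were recovered less well from it cannot be told apart. RNA of the human transgene itself could not be measured, since the mouse reference holds no human gene.

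Endothelial cells of the larger lung vessels differ from those of the capillary bed, where gas is exchanged. They store von Willebrand factor, the product of Vwf, together with P-selectin, the product of Selp, in secretory granules called Weibel-Palade bodies, and release both when activated. Arterial endothelium is known for Notch signalling, the connexin gene Gja5 and the transcription factor gene Sox17, and venous endothelium for the transcription factor gene Nr2f2 and for leukocyte adhesion genes, with Ackr1 and Selp marking venules in many tissues. In the mouse lung, Slc6a2 encodes the noradrenaline transporter, Gpihbp1, Kit and Aplnr are genes of the general capillary cells, and Car4 and Ednrb mark the aerocytes, the other capillary cell type.

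The deposited lung libraries held 96120328 UMIs (TNF-) and 155989523 UMIs (TNF+), and 8342 and 11085 of their barcodes passed the limits on UMIs and mitochondrial share, with medians of 8109 and 9679 UMIs. The Vwf-positive endothelial barcodes made up 5.97% (5.47 to 6.50) of these in TNF- lung and 0.0271% (0.00558 to 0.0791) in TNF+ lung. The whole endothelium, chosen by the same rule without Vwf, Car4 and Ednrb, made up 27.0% and 2.45%. Of the endothelial barcodes, 22.1% (20.4 to 23.9) of 2255 in TNF- lung and 1.10% (0.228 to 3.19) of 272 in TNF+ lung were Vwf-positive. The Vwf-positive TNF- barcodes had a median of 7680 UMIs, between 522 and 104476, and 50 of them held over 5000 genes. The lung libraries shared 21 barcode sequences, none of them in a Vwf-positive endothelial barcode.

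The barcodes with Vwf were followed through the steps of the rule. At least 2 Vwf UMIs stood in 1054 barcodes of TNF- lung and in 528 of TNF+ lung. The 4 endothelial genes left 824 and 83 of them, and the absence of Ptprc left 616 and 5. In TNF+ lung, 445 barcodes were lost for want of endothelial RNA. They were deep, with a median of 35408 UMIs, and Ptprc was found in 95.1% of them, the macrophage lysozyme gene Lyz2 in 100%, Itgax, which encodes the integrin chain CD11c, in 88.5%, and Siglecf, a surface lectin of alveolar macrophages and eosinophils, in 55.1%. Among all TNF+ barcodes that passed the limits, Ptprc stood in 86.2%, Lyz2 in 99.8%, Itgax in 34.2% and Siglecf in 7.19%. The shares of Ptprc and Lyz2 thus lay near those of all barcodes.

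**Figure D1:**
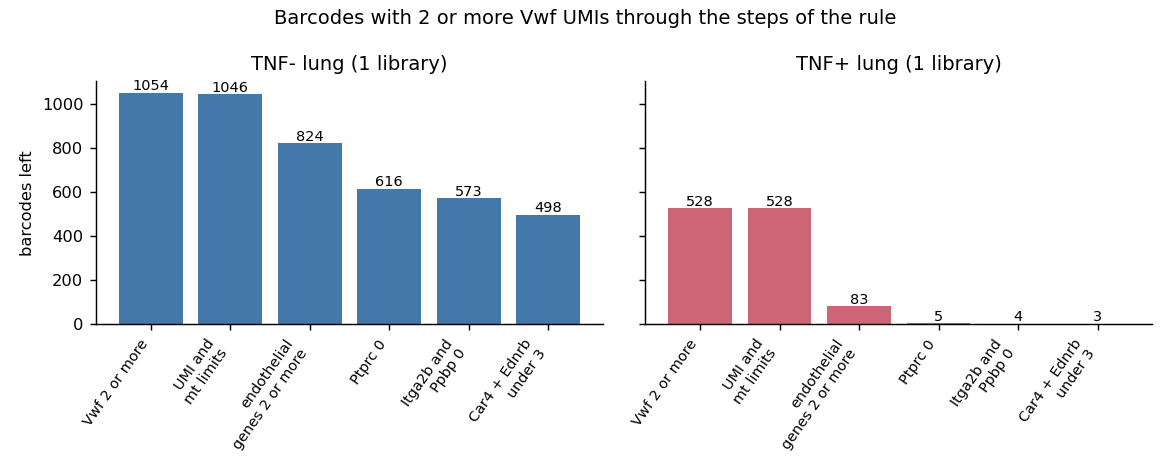
Bars give the number of lung barcodes with at least 2 Vwf UMIs that were left after each step of the rule (y axis, barcodes; x axis, steps in order), in TNF- lung (blue, 1 library) and TNF+ lung (red, 1 library). In TNF- lung 498 of 1054 were left, and in TNF+ lung 3 of 528, most being lost at the steps for endothelial genes and for Ptprc.

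Vwf RNA in TNF+ lung thus lay for the most part outside endothelium. Over all TNF+ barcodes that passed the limits, 2650 Vwf UMIs were counted, of which 29 were in the 3 Vwf-positive endothelial barcodes and 1189 in 706 barcodes that held Siglecf, Itgax and Ptprc together. In TNF- lung the Vwf-positive endothelial barcodes held 7800 of 13288 Vwf UMIs. Among the Siglecf, Itgax and Ptprc barcodes of TNF+ lung, Vwf was at 43.3 CPM (UMIs per 1000000 UMIs of the same barcodes, 40.9 to 45.8) and was found in 61.9%, against 1.84 CPM (1.28 to 2.57) and 1.88% in T cell barcodes. The median depth was 38348.5 UMIs in the former and 10016 in the latter. In the same barcodes Ptprb was at 0.619 CPM and Cdh5 at 1.78 CPM, below their T cell levels of 7.15 and 12.4 CPM. Car4, at 903 CPM against 17.8 CPM in T cells, was high in the same barcodes. In TNF- lung, 438 such barcodes had Vwf at 59.0 CPM (54.8 to 63.4), against 10.99 CPM in T cell barcodes. Ptprb was at 40.5 CPM and Cdh5 at 22.7 CPM in the 438, again below their T cell levels of 112.1 and 82.99 CPM. The other myeloid barcodes held Vwf at 40.65 CPM in TNF- lung, beside 127.1 CPM of Ptprb. In TNF+ lung they held 990 Vwf UMIs, at 11.32 CPM, beside 8.13 CPM of Ptprb. What gives rise to Vwf in the Siglecf, Itgax and Ptprc barcodes or in the other myeloid barcodes was not tested.

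The label of large-vessel endothelium was checked against its markers in TNF- lung. On build GRCm38 these are Vwf (chr6:125546774-125686679), Gja5 (chr3:96904693-97077416), Sox17 (chr1:4490931-4497354), Selp (chr1:164115264-164150026) and Ackr1 (chr1:173331886-173333750), and counts cover exons and introns of the whole gene. Vwf ranged from 2 to 256 UMIs per barcode with a median of 5, and 49 of the 498 barcodes held 51.4% of all 7800 UMIs. Gja5 was found in 16.5% (13.3 to 20.02), Selp in 8.83% (6.49 to 11.7), and Sox17 in 54.6% (50.1 to 59.1). In T cell barcodes, with a deeper median of 9776 UMIs, Gja5 was found in 0.673%, Selp in 2.21% and Sox17 in 4.52%. Ackr1 gave 2 UMIs in all 498 barcodes, and 1 in the 1264 endothelial barcodes that met the Car4 and Ednrb limit but held fewer than 2 Vwf UMIs, so veins could not be read from it in TNF- lung. Sox17 did not mark the Vwf-positive barcodes either. Its level was 147.6 CPM (137 to 159) in them and 172.5 CPM (164 to 181) in the endothelial barcodes of low Vwf, and 91.9% of the 272 barcodes with Sox17 also held the capillary gene Gpihbp1. On Gja5, Selp and the genes below, the label held for a minority, and the whole set is therefore called by its rule.

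The minority stood out when endothelial barcodes of TNF- lung were ordered by their Vwf count. Barcodes just inside the threshold held 2 Vwf UMIs and those just outside it 1. Slc6a2 was at 3.92 CPM in the 119 barcodes inside and 0.717 CPM in the 208 outside, Gja5 at 15.7 and 5.02 CPM, Gpihbp1 at 1180 and 973 CPM, and Kit, a receptor tyrosine kinase gene, at 536 and 516 CPM. Slc6a2 rose to 27.1 CPM at 4 to 9 Vwf UMIs and 368 CPM at 10 to 49, while Gpihbp1 was at 1146 and 783 CPM there. In the 41 barcodes with at least 50 Vwf UMIs, Slc6a2 was at 1017 CPM, the serine protease gene Prss23 at 959 CPM, Vcam1, an adhesion molecule for leukocytes, at 567 CPM, Selp at 134 CPM and Gja5 at 117 CPM. Vcam1 was found in 90.2% of them, Slc6a2 in 70.7% and Selp in 51.2%. Gpihbp1, the anchor of lipoprotein lipase on capillaries, was at 280 CPM, Kit at 49.3 CPM and Aplnr, the apelin receptor gene, at 22.1 CPM. These barcodes were also deeper, with a median of 15937 UMIs against 5640 at 2 Vwf UMIs. The vascular diaphragm gene Plvap changed less, with 1180 CPM at 1 Vwf UMI, 1333 CPM at 2 and 1200 CPM at 50 or more. In barcodes with 0 Vwf UMIs it was at 627 CPM and Gpihbp1 at 556 CPM. Plvap lay at 1335 CPM (1302 to 1367) over all Vwf-positive barcodes, 711.5 CPM (694 to 729) in those of low Vwf and 658.5 CPM (637 to 681) in those with Car4 and Ednrb.

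**Figure D2:**
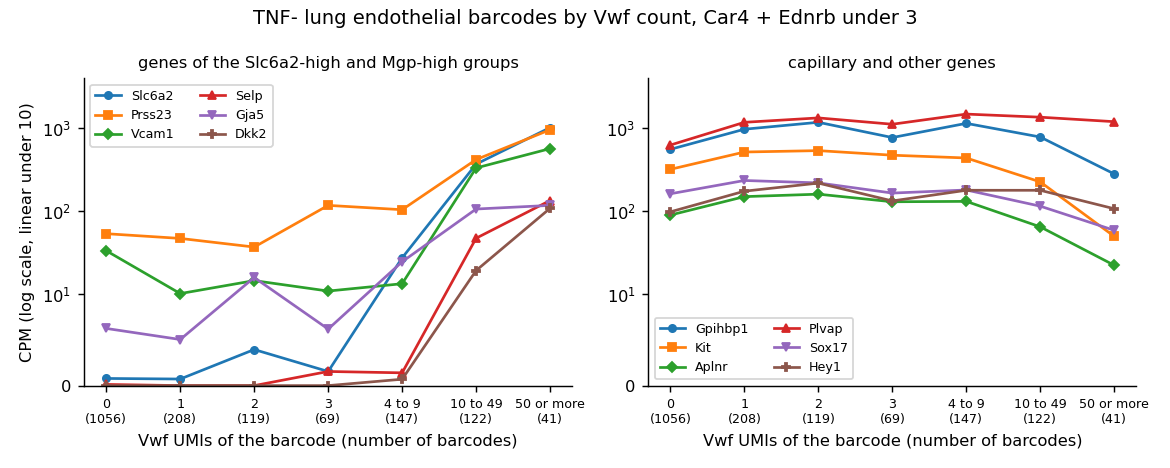
Lines give the level of 12 genes (y axis, CPM, log scale that is linear under 10) in TNF- lung endothelial barcodes with fewer than 3 Car4 and Ednrb UMIs, binned by their Vwf UMIs (x axis, number of barcodes in brackets). Slc6a2, Prss23, Vcam1, Selp, Gja5 and Dkk2 are highest at 50 or more Vwf UMIs, where Slc6a2 reaches 1017 CPM, and Gpihbp1, Kit and Aplnr are lowest there, with Gpihbp1 at 280 CPM.

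To see which barcodes made up this minority, the 498 TNF- barcodes were clustered on their variable genes. This gave 7 groups, numbered from 1 to 7. They were formed from the same barcodes and mostly the same genes that describe them, without the genes of the rule and without Gja5, Sox17, Ackr1 and Selp. Their differences are therefore a description and not a result of a comparison. Group 4 (71 barcodes), led by Slc6a2, and group 6 (26 barcodes), high in Mgp, stood apart. Together these 97 barcodes were 19.5% (16.1 to 23.2) of the set but held 64.9% of its Vwf UMIs and 40 of the 41 barcodes with at least 50 of them. Their median was 42 Vwf UMIs, against 4 in the 351 barcodes of groups 1 to 3, where Gpihbp1 was found in 94.6%. Both groups returned under each of 4 other settings of the clustering, with 61 to 71 barcodes of the Slc6a2-high group and 19 to 26 of the Mgp-high group shared.

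The Slc6a2-high group carried the genes listed as venous. Of the 16 listed venous genes, 13 were at least 2-fold above the other groups, as was Selp. Slc6a2 (chr8:92960079-93001667) ranged from 0 to 62 UMIs per barcode with a median of 12 and was found in 63 of 71. Its level was 1343 CPM, against 0 in the Mgp-high group and 0.769 to 11.9 CPM in groups 1 to 3. Prss23 ranged from 0 to 79 UMIs (median 13) and Nr2f2, the venous identity factor, from 0 to 43 (median 4), whereas 1 barcode each of the 26 in the Mgp-high group held either gene. Gja5 was found in only 2 of the 71. Alongside stood Bst1, an ADP-ribosyl cyclase gene, at 243 CPM, the angiogenic factor gene Vegfc at 897 CPM, the secreted glycoprotein gene Lrg1 at 370 CPM, the prothrombinase gene Fgl2 at 244 CPM and Ptgs2, the inducible cyclooxygenase, at 91.3 CPM. In the Mgp-high group Bst1 was at 6.8 CPM, Vegfc at 254, Lrg1 at 4.5, Fgl2 at 6.8 and Ptgs2 at 34.0 CPM. Acta2, a smooth muscle gene, gave 1126 UMIs in the Slc6a2-high group, but 1021 of them came from 1 barcode.

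The Mgp-high group carried arterial genes. Of the 23 listed arterial genes, 12 were at least 2-fold above the other groups, as was Gja5. Gja5 was found in 25 of 26 barcodes, from 0 to 26 UMIs with a median of 4. Mgp, a matrix inhibitor of BMP signalling and calcification, ranged from 0 to 506 UMIs (median 43), Mecom, an arterial transcription factor gene, from 1 to 120 (median 34), Bmx, a kinase gene of large arteries, from 0 to 30 (median 7), and Efnb2, the arterial ephrin ligand, from 0 to 55 (median 13.5). Mgp was at 5744 CPM in this group and 381 CPM in the Slc6a2-high group, Mecom at 2587 and 237, Bmx at 505 and 22.8, and the elastic fibre genes Fbln2 at 690 and 11.96 and Ltbp4 at 1543 and 463. The Notch target gene Hey2 was at 127 CPM here and 1.09 CPM there. Dkk2 (chr3:132085292-132180304), a Wnt modulator gene, was found in 13 of the 26 and in 15 of all 498 barcodes, 14 of which also held Gja5. Plat, the tissue plasminogen activator, was at 672 CPM against 5.44 CPM. It stands on the list of venous genes, yet lay on the arterial side in these data. Sox17 was found in 8 of the 26 barcodes, below its share in group 2, where it was found in 102 of 117.

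Some genes joined the groups rather than parting them. Eln, the elastin gene, was at 759 CPM in the Slc6a2-high and 629 CPM in the Mgp-high group, against 163 to 235 CPM in groups 1 to 3. The matrix proteoglycan gene Bgn was at 471 and 423 CPM, against 24 to 39, and Cpe, a prohormone-processing carboxypeptidase gene, at 337 and 369 CPM, against 0 to 0.7. Vcam1 was at 756 and 383 CPM, and Selp at 94.6 and 170 CPM. Selp was found in 28 of the 71 barcodes and in 13 of the 26, so this granule and adhesion gene, taken as a venous marker, did not separate the Gja5 side from the Slc6a2 side. Of all 498 barcodes, 44 held Selp, of which 28 also held Slc6a2 and 14 Gja5. Only 2 barcodes held both Gja5 and Slc6a2, although 82 held the one and 81 the other.

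**Figure D3:**
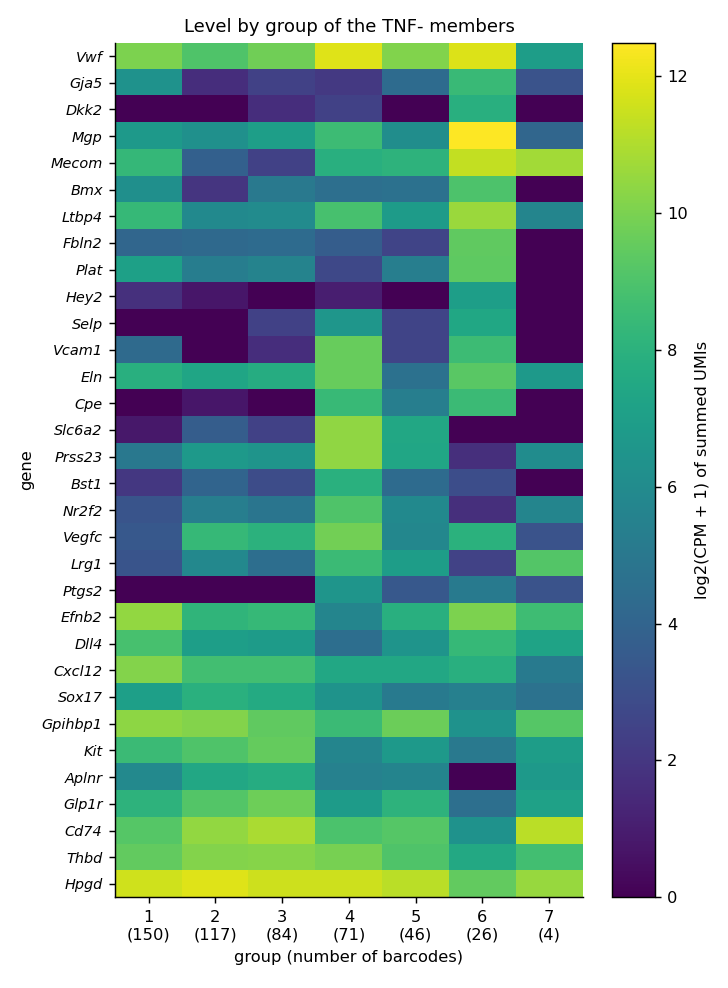
Colours give the level of 32 genes (y axis) as log2(CPM + 1) of UMIs summed over the barcodes of each of the 7 groups of TNF- barcodes (x axis, number of barcodes in brackets). Slc6a2, Prss23, Bst1 and Nr2f2 are highest in group 4, Gja5, Mgp, Mecom, Bmx and Plat in group 6, and Vwf, Selp, Vcam1, Eln and Cpe in both.

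Gpihbp1 was higher in groups 1 to 3 than in the Slc6a2-high and Mgp-high groups. Group 1 (150 barcodes) held Efnb2 at 1408 CPM, the Notch ligand gene Dll4 at 463 CPM and the chemokine gene Cxcl12 at 1152 CPM, all above the Mgp-high group, which had 1039, 333 and 231 CPM. Of the listed arterial genes, Efnb2, Dll4, Cxcl12, Unc5b, Hey1 and Sema3g were at least 2-fold above the other groups. Group 1 was led by Esm1, a gene of endothelial tip cells, and also held Gpihbp1 at 1307 CPM, with Gja5 in 48 of its barcodes and Selp in none. Groups 2 and 3 (117 and 84 barcodes) were high in Kit (526 and 740 CPM) and held Slc6a2 at 11.9 and 4.30 CPM. Cd74, the invariant chain of MHC class II, was at 1388 CPM in group 2 and at 1907 CPM in group 3, where 351 of its 886 UMIs came from 1 barcode. In the Mgp-high group Kit was at 31.7 CPM and Cd74 at 81.5 CPM. The prostaglandin-degrading enzyme gene Hpgd was at 2950 CPM in the Slc6a2-high group, within the 2944 to 3710 CPM of groups 1 to 3, and at 720 CPM in the Mgp-high group. Thbd, which encodes the anticoagulant thrombomodulin, was at 962 and 183 CPM in the same pair. Group 5 (46 barcodes) was shallow, with a median of 1976.5 UMIs and Slc6a2 at 176.5 CPM, and group 7 (4 barcodes) held epithelial genes, and neither is described further.

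**Figure D4:**
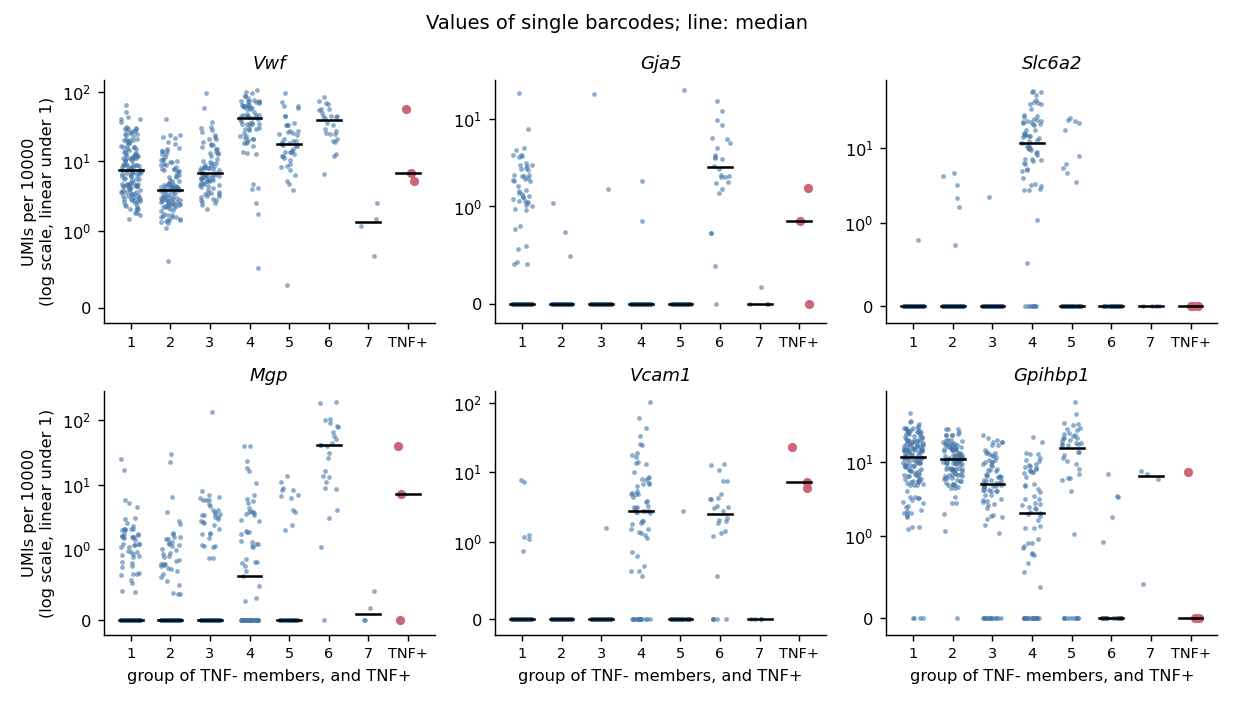
Each point is 1 barcode, with its UMIs of 6 genes per 10000 UMIs (y axis, log scale that is linear under 1) in the 7 groups of TNF- barcodes (blue) and in the 3 TNF+ barcodes (red), and lines are medians (x axis, group). Vwf is high in groups 4 and 6, Slc6a2 in group 4 and Gja5 and Mgp in group 6, while Gpihbp1 is low in both and lowest in group 6, where it was found in 5 of 26 barcodes.

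Signs of an artery or a vein were also read for each barcode from the marker pairs, as at least 2 UMIs of Gja5 and Sox17 (arterial) or of Ackr1 and Selp (venous) that outweighed the other pair. In TNF- lung, 211 barcodes had an arterial sign (42.4%, 38.0 to 46.8), 19 a venous sign (3.82%, 2.31 to 5.89) and 268 neither. Of the 211 with an arterial sign, 82 fell in group 2, 63 in group 1, 27 in group 3, 21 in the Mgp-high group and 16 in the Slc6a2-high group. Of the 19 with a venous sign, 16 fell in the Slc6a2-high and 3 in the Mgp-high group. The Slc6a2-high group thus held as many barcodes of either sign. Between these barcodes, 599 of 9913 genes with at least 20 UMIs lay at least 2-fold higher on the arterial side with the interval clear of 0 (6.04%) and 542 lower (5.47%), around a median log2 ratio of 0.07. Of 16 venous genes, 13 were past 2-fold on the venous side and 0 on the arterial side, with a median log2 ratio of -2.43. Vcam1 was found in 18 of the 19 venous barcodes (-4.60, -4.85 to -4.36), the membrane-bound matrix protease gene Mmp16 in 15 (-4.84, -5.51 to -4.22) and Ch25h, which encodes cholesterol 25-hydroxylase, in 10 (-5.45, -6.76 to -4.34). Other named ratios rested on 1 barcode, as with 28 of the 34 venous Mki67 UMIs, a proliferation gene, 388 of the Ccn2 UMIs and 96 of the Acta2 UMIs. Of 11 general capillary genes 6 were higher on the arterial side and 0 lower (median 2.20), with Kit at 3.21 and Aplnr at 5.10. Of 22 arterial genes 9 were higher, among them Hey1 (1.86) and Cxcl12 (2.28), and 3 lower, the elastic fibre genes Fbln5 (-2.66), Fbln2 (-1.68) and Ltbp4 (-1.16). The general capillary genes thus lay on the side of the arterial sign, and these elastic fibre genes on the side of the venous sign.

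The Vwf-positive barcodes of TNF- lung were next set against the other 1757 endothelial barcodes of the same library. The rule separated these sets by Vwf, Car4 and Ednrb, so the ratios describe them. Of 14484 genes with at least 20 UMIs, 352 were at least 2-fold higher (2.43%) and 1674 lower (11.6%), around a median of 0.00. The lower count moved with RNA of other cells. Of 16 epithelial genes 14 were lower, and of 14 fibroblast genes 13, and without barcodes rich in such UMIs 422 genes were higher and 396 lower.

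Among the genes higher in Vwf-positive barcodes, several leading genes of the Mgp-high group had large ratios. Dkk2 gave 108 UMIs in 498 barcodes and 0 in the other 1757. With the 0 set to 3 UMIs, its log2 ratio was 6.74 (lower limit 6.42). Slc6a2 gave 1291 and 103 UMIs, or 264 CPM (250 to 279) and 7.09 CPM (5.79 to 8.60), a ratio of 5.22 (4.93 to 5.53). Of the 103 UMIs in the other set, 73 came from 1 barcode. Rbp7, a retinol-binding protein gene, gave 426 and 19 UMIs and a ratio of 6.06 (5.399 to 6.81), and Enpp6, a choline-specific phosphodiesterase gene, 231 and 9 UMIs and 6.25 (5.31 to 7.40). Cytl1, which encodes a small secreted protein, gave 704 and 29 UMIs (6.17, 5.64 to 6.76), with 172 of them in 1 barcode. Sele, the gene of E-selectin, gave 93 and 0 (6.53 with the 0 set to 3, lower limit 6.2), with 57 in 1 barcode. Tmem255b gave 45 and 1 UMIs (7.07, 4.51 to 12.4) and Mannr 32 and 1 (6.57, 3.99 to 11.9). The 7 other named genes, among them the estrogen receptor gene Esr2 (3.99, 3.47 to 4.53), the homeobox gene Lhx6 (4.10) and the integrin chain gene Itgb4 (3.90), lay between 3.90 and 4.78.

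**Figure D5:**
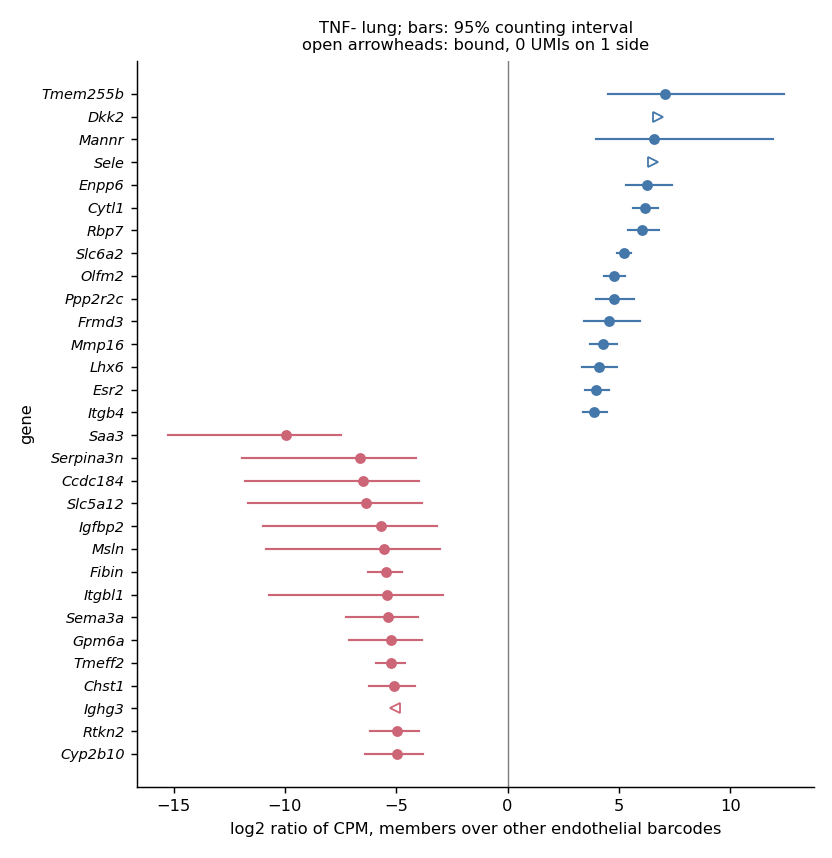
Points give the log2 ratio of CPM (x axis) of Vwf-positive over other endothelial barcodes in TNF- lung for the 15 named genes with the highest ratios (blue) and the 15 with the lowest (red), with their 95% counting intervals, and open arrowheads mark bounds where 1 side held 0 UMIs. Ratios run from -9.95 for Saa3 to 7.07 for Tmem255b.

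The genes lower in Vwf-positive barcodes, 11.6% of all genes, were in part those of aerocytes, which the rule shuts out through Car4 and Ednrb. Of 11 listed aerocyte genes 8 were lower, among them Fibin (-5.45, -6.26 to -4.74), Apln, the ligand of Aplnr (-4.11), Tbx2 (-3.67) and Emp2 (-3.36). Others belonged to further cells. Of the UMIs of Saa3 (-9.95), an acute-phase gene, 84.9% came from 1 barcode of the other set, and the mesothelial gene Msln (-5.56) had 80.7% in 1 barcode. All but 1 of the 294 UMIs of the immunoglobulin gene Ighg3 were in a single barcode. Of 7 lymphatic genes 5 were lower, including Prox1 with 0 UMIs against 220, and Lyve1, a hyaluronan receptor gene shared with macrophages, was higher (1.67, 1.60 to 1.74).

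The lists by function are set beside 2.43% higher and 11.6% lower over all genes. Venous genes were the list furthest above the median of all genes (10 of 16 higher, 0 lower, median log2 ratio 1.89). After Sele and Slc6a2 came Bst1 (3.98), Vcam1 (2.93, 2.75 to 3.12), Amigo2 (2.58), Cpe (2.53), Prss23 (2.43), Vegfc (2.26), Plat (1.52) and Tmem252. Of 23 arterial genes 5 were higher and 3 lower (median 0.69). They were Bmx (2.93), the elastic fibre and matrix genes Fbln2 (1.95), Ltbp4 (1.29) and Fbln5 (1.198), and Htra1 (1.498), a protease gene, while Mgp was lower (-1.02) at 656.7 CPM against 1333 CPM. For Mgp, Bmx and Bst1 the level per barcode was under 2-fold that of T cell or myeloid barcodes, so free RNA was not cleared. No general capillary gene of 11 was past 2-fold in either direction (median 0.54). Gpihbp1 was at 871 CPM against 616 CPM, Kit at 341 against 324 CPM and Aplnr at 101 against 93.4 CPM.

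Weibel-Palade body genes had 3 of 11 higher and 2 lower (median 0.65), beside 2.43% higher and 11.6% lower over all genes. Selp, the granule cargo read out with Vwf, gave 165 and 5 UMIs, a ratio of 6.62 (5.37 to 8.26), and Sytl4, a granule tethering protein gene, 18 and 25 UMIs (1.10, 0.14 to 2.03). Angpt2, another granule cargo, lay at 29.3 and 23.9 CPM, and the membrane protein gene Cd63 was lower. Among 16 leukocyte adhesion genes 4 were higher, Selp, Sele, Vcam1 and Jam2 (1.28, 1.13 to 1.43), and 2 lower, while Icam1 was at 169.7 CPM against 198.8 CPM. Of 14 coagulation genes 3 were higher, Procr, Plat and Fgl2, and 3 lower, and Thbd was at 869 CPM against 708 CPM.

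Genes linked to pulmonary hypertension were also read. Of 27 BMP and pulmonary hypertension genes 1 was higher, Atp13a3 (2.49), a transporter gene, and 4 lower, with a median of 0.16, beside 2.43% higher and 11.6% lower over all genes. Bmpr2, the BMP receptor gene mutated in heritable disease, was at 1904 CPM (1865 to 1943) against 1679 CPM (1658 to 1700). Of 19 vasoactive genes Nos3, the endothelial nitric oxide synthase (1.42, 1.21 to 1.63), and Ptgs2 (1.44) were higher, and Edn1, the endothelin gene, was at 319 against 186 CPM. Of 15 Notch genes 3 were higher, Hey2 (2.01, 1.43 to 2.60), Nrarp (1.24) and Dll1 (1.17), and 2 lower. Vegfc and Esm1 (1.53) were the 2 of 17 VEGF and angiopoietin genes that were higher, and 4 were lower. None of 19 antigen presentation genes was past 2-fold, and of 23 interferon genes 1 was. Of 26 TNF and NF-kB response genes 1 was higher and 5 lower (median 0.14). Of 26 complement genes, the pathway the study followed, 1 was higher, the regulator Cd55 (1.48, 1.24 to 1.71), and 10 were lower. C3 was at 10.0 CPM (7.42 to 13.3) in Vwf-positive barcodes, close to the 7.36 CPM of T cell barcodes. It was at 92.6 CPM (87.7 to 97.6) in the other endothelial barcodes, which also held RNA of other cells. The fibroblast list summed to 2781 CPM in those of low Vwf and 909.5 CPM in those with Car4 and Ednrb, against 503 CPM. For the epithelial list these were 64260 and 3432 CPM, against 16080 CPM. The part of such RNA in the lower complement genes was not tested. Cell cycle genes had 6 of 14 higher (median 0.67), with 55 Mki67 UMIs in the set, 28 of them in 1 barcode. For Top2a, 30 UMIs stood in 1 barcode.

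The Vwf-positive barcodes carried RNA of other cells too. At least 3 UMIs of the epithelial list stood in 93.2% of the TNF- barcodes, where it summed to 16080 CPM, with 97.5% of the UMIs of the club cell secretoglobin gene Scgb1a1 in 1 barcode. The fibroblast list summed to 503 CPM, the mural list to 709, the myeloid list to 459 and the lymphocyte list to 102 CPM, and Prox1 was at 0. In the 3 TNF+ barcodes these lists summed to 714, 291, 370, 872 and 714 CPM. Their part in the ratios beyond the alternatives given was not tested.

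The 3 TNF+ barcodes were unlike each other. The first held 24698 UMIs, with Vwf at 13, Sox17 at 2 and Vcam1 at 57 UMIs, and no Slc6a2 or Gpihbp1. Of genes of the Mgp-high group of TNF- lung, it held Gja5 at 4, Dkk2 at 40, Mgp at 99, Mecom at 76, Bmx at 9 and Ltbp4 at 40 UMIs. The second held 11739 UMIs, with 8 of Vwf, 17 of Kit, 7 of Vcam1 and 1 each of Gja5, Sox17, Nr2f2 and Car4. The third held 1393 UMIs, 17.9% of them mitochondrial, with 8 of Vwf, 5 of Ptprb, 2 of Pecam1 and 0 of Cdh5 and Cldn5. A further TNF+ barcode of 31238 UMIs fell outside the rule through 4 UMIs of Ednrb. It held 129 of Vwf, 92 of Ackr1, 69 of Selp, 71 of Vcam1 and 24 of Nr2f2, with no Slc6a2 and no Gja5. Its 92 Ackr1 UMIs were all but 1 of those in the 272 TNF+ endothelial barcodes. A barcode with 1 Vwf UMI and 25098 UMIs held 27 of Selp.

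Set against the 498 TNF- barcodes, the 37830 UMIs of the 3 TNF+ barcodes mostly repeat the first of them. Of 11059 genes, 522 were at least 2-fold higher (4.72%) and 219 lower (1.98%). The median log2 ratio was 1.03, set by the floor of 3 UMIs that stands for the many genes at 0 in 3 barcodes. It lay between 0.29 and 2.60 under other settings, so medians of lists are set beside it as description only. Centred on the median of 1.03, 122 genes were higher and 1244 lower, so that the number of calls on each side depends on the scaling. Among the highest named genes were Fn1, the fibronectin gene, with 51 and 99 (6.06, 5.54 to 6.56), Dkk2 with 40 and 108 (5.58, 5.02 to 6.12) and Enpp2, the autotaxin gene, with 51 and 250 (4.72, 4.26 to 5.16). All of the Fn1 and Dkk2 UMIs came from 1 TNF+ barcode.

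Among the lowest named genes, Hpgd gave 1 UMI against 2932 CPM (-6.79, -12.1 to -4.32), Tmem100, a gene of BMP signalling in endothelium, 1 UMI against 1977 CPM (-6.22), Cd36, the fatty acid translocase gene, 1 UMI against 1930 CPM (-6.19), Sema3c 1 UMI (-5.90) and Gpihbp1 1 UMI against 871 CPM (-5.04, -10.3 to -2.56). Scgb1a1 (-6.59), the airway gene named above, rested on 1 TNF- barcode. Pltp gave 0 UMIs, a log2 ratio of -4.09 with the 0 set to 3 UMIs (upper limit -3.79). Of 11 general capillary genes 7 were lower and 0 higher (median -2.17), and of 22 arterial genes 10 were higher and 0 lower (median 1.06, against 1.03 for all genes). Of 16 venous genes 3 were higher, led by Vcam1 (3.24, 2.85 to 3.6) with 57 of its 65 UMIs in the first barcode, and 3 lower. Slc6a2 was at 0 UMIs, which, set to 3 UMIs, lay 1.74 lower on the log2 scale than its 264 CPM in TNF- lung.

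Over all genes of this comparison, 4.72% were higher and 1.98% lower around the median of 1.03, and centring turned this to 122 higher and 1244 lower. Leukocyte adhesion genes had 6 of 16 higher and 2 lower (median 0.98, beside 1.03 for all genes). TNF and NF-kB response genes had 7 of 19 higher and 2 lower (median 1.44). The basement membrane and elastic fibre genes had 10 of 24 higher and 0 lower (median 1.58). Antigen presentation genes had 5 of 19 lower and 0 higher (median -0.74), and BMP and pulmonary hypertension genes 6 of 26 lower and 0 higher (median 0.10). Bmpr2 was at 1084 CPM (778 to 1470) in the 3 TNF+ barcodes against 1904 CPM, and the BMP receptor gene Acvrl1 at 264 CPM (127 to 486) against 962 CPM (935 to 990). C3 gave 3 UMIs in the TNF+ barcodes, and its level per barcode did not clear that of free RNA. With 3 barcodes from 1 library, composition and genotype cannot be told apart.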

How the data were processed

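Single-cell suspensions of pooled lung, 1 library per genotype, were sequenced with 10x 3′ chemistry. The authors deposited raw UMI counts per gene and barcode, made with Cell Ranger 7.0.1 on build mm10 per the submitters' processing notes, so intronic reads are included. Only barcodes called as cells are held, and the 32285 genes lack the human transgene. Positions were found for 32158 genes in GENCODE vM21.

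UMIs were summed over the barcodes of a set and divided by their total (CPM). Intervals at 95% are exact Poisson for CPM, Clopper-Pearson for shares and conditional binomial for log2 ratios. Genes with 20 or more UMIs over both sets were compared, without mitochondrial and ribosomal protein genes, and a gene was counted as higher or lower at 2-fold with its interval clear of 0. A count of 0 was set to 3 UMIs for the log2 ratio, while the interval kept the 0. Named genes were the 15 highest and the 15 lowest past that limit with at least 30 UMIs, outside the rule and the sign markers, at least 2-fold per barcode above T cell and myeloid barcodes of the same library, which measure free RNA. Further genes come from 30 lists, or were chosen after their values were seen (the barcodes with Siglecf, Itgax and Ptprc, and the leading genes of groups). The members, lists and comparisons were chosen with earlier results of these data known, and lists of vessel types are drawn from the field's knowledge of lung endothelium.

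Groups came from 1500 variable genes outside the rule and the sign markers, 15 principal components, 15 nearest neighbours and Leiden clustering at resolution 0.8. The named groups are known by leading genes only. No doublet caller was run, and barcodes with UMIs of other cell types were left out as alternatives instead. On simulated counts with 4-fold changes, 99.5% of 196 changed genes and 0.566% of unchanged genes were called against other endothelium (14510 genes). Between signs, 94.25% of 174 changed genes and 1.365% of unchanged genes were called (9920 genes). The simulated counts held counting error only, without spread between barcodes. They do not give the rate of such calls in the real data. Python 3.11.15 with numpy 2.4.6, scipy 1.17.1, pandas 2.3.3, igraph 0.11.9 and leidenalg 0.10.2 was used. The synovial libraries were not used here. No sequences are given, since the genes the results turn on were not all held in the reference tables used here. A named gene of the comparison between genotypes is not reported here.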

Additional observations from a re-analysis of the deposited data

How the results depend on the processing

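No paired analysis was possible because each group is 1 library. With barcodes of 200 to 5000 genes only, 1336 genes were past 2-fold against other endothelium and the median log2 ratio between genotypes (genotype median) was 2.39. With Vwf at 1 UMI, Vwf-positive barcodes were 8.46% of TNF- and 0.0812% of TNF+ barcodes, 1247 genes were past 2-fold between genotypes and the genotype median was 0.29. With Vwf at 4 UMIs, the share was 3.72%, the venous share 6.13% and the genotype median 0.86. At 10% mitochondrial UMIs, 2 of the 2 TNF+ barcodes left had an arterial sign (100%, 15.8 to 100). Without any barcode holding 3 UMIs of another cell type, 15 TNF- barcodes (0.180%) and 0 TNF+ barcodes were left, the arterial and venous shares were 0%, 489 genes were past 2-fold against other endothelium, and neither genotype nor signs could be compared. In those 15 shallow barcodes, Serpina3n (1.94), Ccdc184 (2.09), Slc5a12 (2.22), Igfbp2 (2.90), Msln (3.01), Itgbl1 (3.17), Sema3a (1.18), Gpm6a (1.34), Chst1 (0.30), Ighg3 (1.94), Rtkn2 (0.60) and Cyp2b10 (1.03) turned positive, since 0 UMIs were set to 3. Thinned to 1000 UMIs, the share was 2.59%, the arterial share 3.0%, the venous share 0.5%, the genes past 2-fold 71 between genotypes, 542 against other endothelium and 1 between signs, and the genotype median 1.15, while Scgb1a1 (0.15) and Arap2 (1.02) between genotypes and Gpm6a (0.41) against other endothelium turned positive. The genotype median was 0.85 with equal weight per barcode, 1.66 at 5 UMIs and 2.60 without the deepest TNF+ barcode. Centring gave 1366 genes past 2-fold between genotypes, 122 higher and 1244 lower. A sign at 1 UMI gave an arterial share of 58.2%. Leaving out barcodes with many other-cell UMIs, chosen after seeing the data, gave 818 genes against other endothelium, 422 higher and 396 lower. Of 350 values of named genes against other endothelium under the alternatives, 330 kept their direction and call, of 311 between genotypes 276 and of 261 between signs 260. The cause of the other moves was not tested. Depth limits low values in TNF+ lung, where a count of 0 among 37830 UMIs, set to 3 UMIs, stands at 79.3 CPM.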
